A study of Mus musculus with 11 samples.

Results

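The genes described here encode 10 surface proteins by which muscle stem cells (satellite cells) are recognised, sorted or held in place: Calcr, Cd34, Vcam1, Sdc3, Sdc4, Cxcr4, Cdh15, Ncam1, Megf10 and Chodl. They were found in the deposited count table by the Ensembl identifiers of these symbols. They are 10 of its 48709 genes, each with 1 entry, and all 10 passed the filter on low counts. The list was named by symbol, without a threshold on any measured value.

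Muscle stem cells came from pectoral, forelimb and hindlimb muscles of Tg:Pax7-nGFP mice on a C57BL/6 background, which carry a nuclear green fluorescent protein under control of the Pax7 gene. In T0 the muscles were fixed with 0.5% paraformaldehyde (PFA) for 1 h at 4°C before the cells were taken out. In T3 the cells were sorted by flow cytometry and then fixed with 0.5% PFA for 30 min on ice. T5 cells were fixed like T3 cells and had a further 2 h at 37°C, which the labels' protocol places before the isolation, in dissected muscle in DMEM, and the series description after it. All groups carried the transgene and all were fixed. Because T0 was fixed as tissue and the other groups as sorted cells, the kind of fixation and the isolation cannot be told apart. RNA of the fixed cells was sequenced from 3 libraries of T0, 4 of T3 and 4 of T5, with 49078859 to 102347035 counts a library. The T5 libraries that share a letter were added up to replicates A and B, so n = 3, 4 and 2. No label says whether libraries came from separate animals, so the spread behind each p-value is that between these samples and could be technical only.

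A satellite cell lies between the myofibre and its basal lamina, quiescent until injury or stretch. Its surface proteins hold it there (M-cadherin towards the fibre, syndecans and their glycans towards the matrix), carry signals that keep it quiescent (the calcitonin receptor), and present or receive signals that call it to divide and move (syndecan co-receptors, the chemokine receptor CXCR4). Antibodies against several of them are used to sort the cells.

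In T3, 6 of the 10 marker transcripts were lower and 2 were higher than in T0 (edgeR's quasi-likelihood test, Benjamini-Hochberg adjusted p under 0.05). Chodl, Cdh15, Calcr, Cd34, Megf10 and Sdc3 fell, and Sdc4 and Vcam1 rose. Of all 31999 genes tested, 22.9% were lower and 15.0% higher in this comparison. The median log2 fold change of the 10 markers was -0.88, against 0.05 over all genes tested. In bulk samples fewer cells of a type and less RNA per cell cannot be told apart. Levels are given as CPM (counts scaled to TMM-corrected library sizes), and each ± is an SD for levels and a standard error for log2 fold changes.

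After the added 2 h, 3 transcripts were lower than in T3: Cd34, Vcam1 and Cxcr4. Of all genes 0.888% were lower and 1.28% higher in this comparison. The count of markers that rose was 0 in edgeR, 0 at an unadjusted p under 0.05 and 0 in DESeq2. The median was -0.57 for the markers and 0.05 for all genes. Against T0, 7 markers were lower in T5 (all genes 22.5%) and 1 was higher (all genes 13.2%), with medians of -1.32 and 0.18. T3 is the control of one comparison and T0 of the others, so the 3 comparisons share samples. Without T5 replicate A, and likewise without B, none of the 3 falls from T3 to T5 passed the test.

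**Figure D1:**
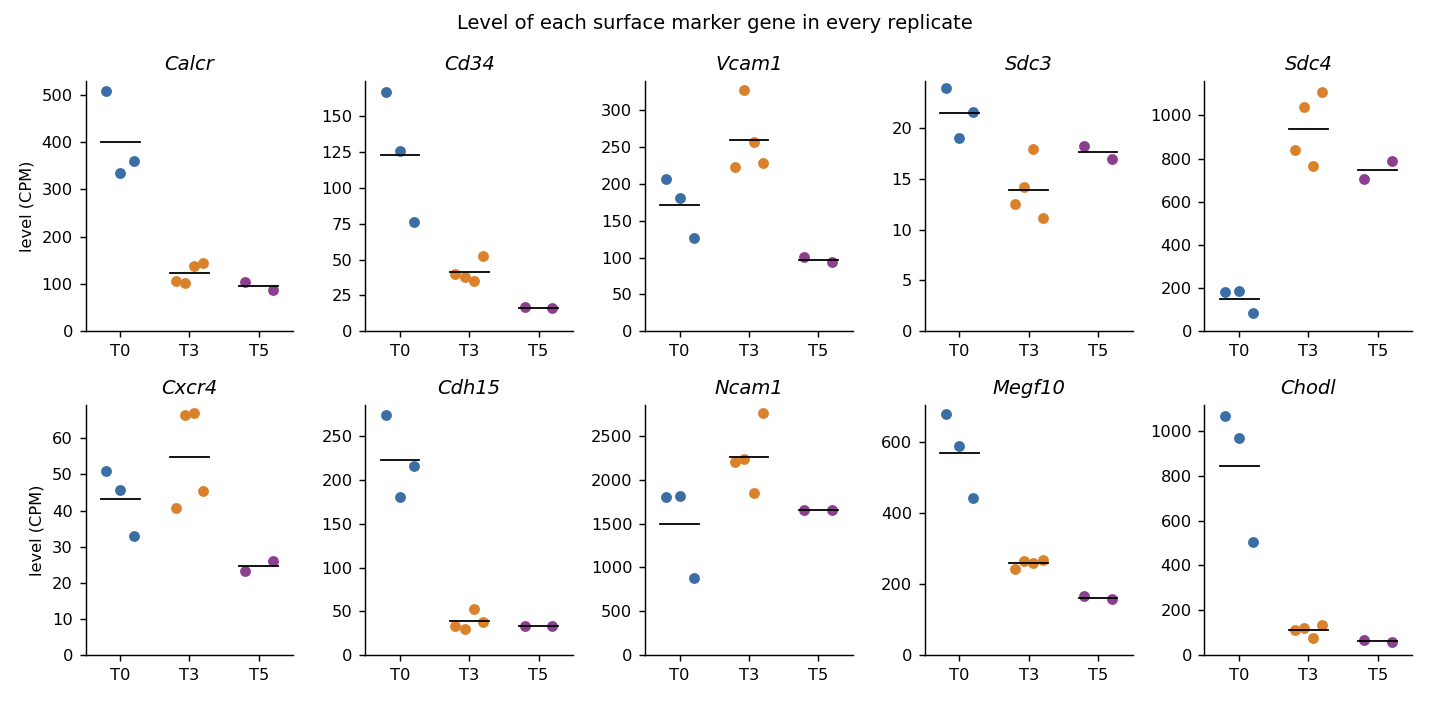
Level of each marker in CPM (vertical axis, linear from 0) in every replicate of T0, T3 and T5 (points), with the group mean (line). Sdc4 is the marker whose T3 and T5 points all lie above T0, while all T3 and T5 points of Calcr, Cd34, Sdc3, Cdh15, Megf10 and Chodl lie below the T0 points.

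The upstream sequences of 2 markers are shown because these genes made the largest moves from T0 to T3, Sdc4 upwards and Chodl downwards. Each is the 250 bases before the RefSeq gene start (build GRCm38.p6), 5′ to 3′ on the strand of the gene. Sdc4 is at chr2:164443189-164443438 on the minus strand, in an intron of a longer non-coding Sdc4 transcript of GENCODE, with capitals marking a match to the NF-kB motif GGGNNTTCC. Chodl is at chr16:78930698-78930947 on the plus strand, with capitals marking E-boxes (CANNTG), the core that MYOD1 and related factors read.
Sdc4: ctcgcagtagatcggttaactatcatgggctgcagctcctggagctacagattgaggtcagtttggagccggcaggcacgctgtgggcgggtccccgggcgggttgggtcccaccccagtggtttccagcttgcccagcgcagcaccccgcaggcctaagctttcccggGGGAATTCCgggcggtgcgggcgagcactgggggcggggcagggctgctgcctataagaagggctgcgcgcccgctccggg
Chodl: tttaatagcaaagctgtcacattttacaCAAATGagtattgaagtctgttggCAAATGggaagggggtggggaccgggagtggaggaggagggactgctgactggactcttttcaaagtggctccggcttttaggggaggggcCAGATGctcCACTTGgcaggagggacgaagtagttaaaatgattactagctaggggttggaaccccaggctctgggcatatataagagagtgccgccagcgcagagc

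The Sdc4 window held 1 NF-kB match, 81 to 73 bases before the start, and a TATAA 29 to 25 bases before it, with 68.0% G and C. Chodl held 4 E-boxes, the nearest 98 to 93 bases before the start, and a TATAA at 27 to 23, with 52.0% G and C. It also held 1 match to the RBPJ motif TGGGAA, 194 to 189 bases before the start and not marked by capitals. The window of Cdh15 held 3 E-boxes but lies in the 5′ UTR of the GENCODE transcript, and is not shown. Both strands of 32817 such windows were searched. The NF-kB motif was in 5.0% of them, TGGGAA in 21.6% and TATAA in 22.8%. The E-box was in 66.2%, with a median of 1.0 match a window. Windows were found for 7 markers. None of them held the AP-1 motif TGANTCA, which was in 6.8% of all windows, and the E-box was otherwise found only in 1 of 2 windows of Calcr. The matches describe letters in these windows and not binding.

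Calcr encodes the calcitonin receptor, a Gs-coupled receptor of quiescent satellite cells (ENSMUSG00000023964, chr6:3685680-3764714, minus strand, coordinates of all genes from GENCODE vM21 on GRCm38). Its level was 507.6, 334.9 and 360 CPM in the T0 replicates, 105.7, 101.5, 138.4 and 143.6 CPM in T3, and 104.7 and 86.41 CPM in T5. Every T0 replicate lay above every T3 and T5 replicate, and T3 and T5 overlapped. Calcr fell 3.28-fold from T0 to T3 (log2 -1.71 ± 0.22, adjusted p = 1.09e-06) and stood at 23.8% of the T0 level in T5 (log2 -2.07 ± 0.28, adjusted p = 4.84e-06). T5 did not pass the test against T3 (log2 -0.36, 95% interval -0.88 to 0.16, adjusted p = 0.581).

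Its closest relative is Calcrl, a calcitonin receptor-like receptor that endothelial cells use. Calcrl had 27.7 ± 7.49 CPM in T0, 21.1 ± 10 in T3 and 91.5 ± 2.54 in T5. It rose from T3 to T5 (log2 2.12 ± 0.29, adjusted p = 9.53e-05). Ramp2, an accessory protein that sets the ligand preference of receptors of this family, fell from 36.1 ± 13.3 to 8.82 ± 1.49 CPM in T3 (log2 -2.03 ± 0.23, adjusted p = 3e-07), though its exons overlap those of Vps25. The kinase gene Prkaca, downstream of Gs, fell by 0.93 on the log2 scale in T3 (adjusted p = 0.000909).

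Cxcr4 encodes the receptor for the chemokine CXCL12 (ENSMUSG00000045382, chr1:128588199-128592293, minus strand). It had 51.03, 45.81 and 32.93 CPM in T0, 40.72, 66.36, 67.13 and 45.39 CPM in T3, and 23.29 and 26.14 CPM in T5. T0 and T3 overlapped and did not pass the test (log2 0.34, 95% interval -0.12 to 0.81, adjusted p = 0.259), while both T5 replicates were below all others. Cxcr4 fell 2.22-fold from T3 to T5 (log2 -1.15 ± 0.27, adjusted p = 0.019) and 1.75-fold against T0 (log2 -0.81 ± 0.27, adjusted p = 0.0229). The fall from T3 did not pass without T3 replicate 2 (adjusted p = 0.0616), without T3 replicate 3 (0.0549), or without T5 replicate A (0.396) or B (0.237). The fall against T0 did not pass with upper quartile scaling (adjusted p = 0.0961), or without T0 replicate 1 (0.0586), T0 replicate 2 (0.0642), T5 replicate A (0.216) or T5 replicate B (0.104), and with that scaling T3 was called higher than T0 (log2 0.66, adjusted p = 0.00667).

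CXCL12 also binds Ackr3, an atypical receptor that clears the chemokine. Ackr3 rose from 67.9 ± 24.3 CPM in T0 to 125 ± 13.6 in T3 (log2 0.88 ± 0.23, adjusted p = 0.00382). It fell to 53.1 ± 5.43 in T5 (log2 -1.24 ± 0.28 against T3, adjusted p = 0.0141), which did not pass without T5 replicate A (0.167) or B (0.373). The chemokine itself, Cxcl12, was read at 17 ± 2.6, 17.8 ± 3.43 and 10.8 ± 0.15 CPM. Its fall in T5 against T0 (log2 -0.65, adjusted p = 0.0464) did not pass with upper quartile scaling (adjusted p = 0.27), with no filter on low counts (0.0643), with only the 2 groups compared (0.186), or without T5 replicate A (0.272) or B (0.231).

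Megf10 encodes a transmembrane protein with epidermal growth factor repeats that takes part in satellite cell proliferation and in Notch signalling (ENSMUSG00000024593, chr18:57133090-57297467, plus strand). Levels were 678.2, 588.1 and 442.8 CPM in T0, 241.7, 263.8, 258.8 and 266.6 CPM in T3, and 164.6 and 157.3 CPM in T5. The 3 groups did not overlap, and the T3 replicates lay close together. Megf10 fell 2.21-fold from T0 to T3 (log2 -1.14 ± 0.20, adjusted p = 8.03e-05) and 3.54-fold from T0 to T5 (log2 -1.82 ± 0.26, adjusted p = 9.5e-06). The step from T3 to T5 (log2 -0.68 ± 0.24) had an adjusted p of 0.181 here and 0.0249 when the 4 T5 libraries were taken as 4 replicates.

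**Figure D2:**
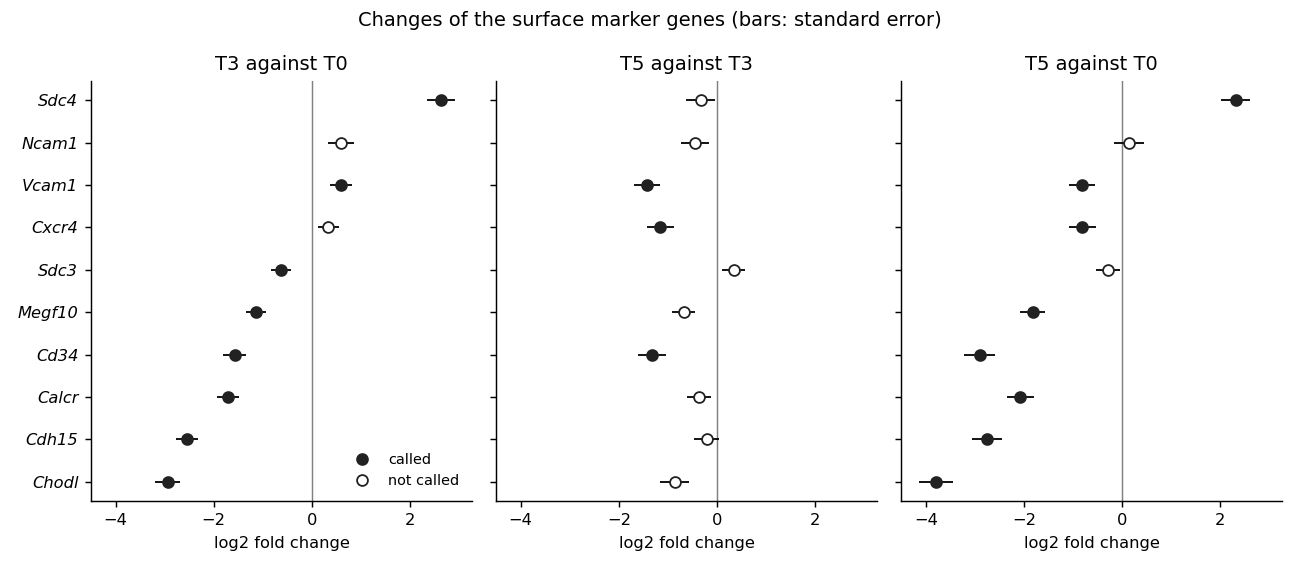
Log2 fold change of each marker (points, with bars of 1 standard error) in the 3 comparisons, filled where the adjusted p was under 0.05. Sdc4 is far to the right in T3 and T5 against T0 (2.64 and 2.32) and Chodl far to the left (-2.94 and -3.80), while T5 against T3 holds 3 filled points, all to the left.

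Among the adhesion molecules, Cdh15 encodes M-cadherin, which joins the satellite cell to its myofibre (ENSMUSG00000031962, chr8:122847966-122867397, plus strand). Its level was 274.1, 180.7 and 215.9 CPM in T0, 33.38, 29.78, 52.93 and 37.42 CPM in T3, and 33.35 and 33.07 CPM in T5. The lowest T0 replicate was well above the highest T3 replicate, and T5 lay within the T3 range. Cdh15 fell 5.82-fold from T0 to T3 (log2 -2.54 ± 0.23, adjusted p = 9.38e-09) and was 6.73-fold lower in T5 than in T0 (log2 -2.75 ± 0.30, adjusted p = 3.03e-07). From T3 to T5 the estimate was -0.21 (95% interval -0.73 to 0.32, adjusted p = 0.741). Cdh15 lies within the longer gene model Gm20388 on the same strand, whose exons do not overlap its own and whose log2 fold changes against T0 were 0.48 in T3 and 0.71 in T5.

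Ncam1, the neural cell adhesion molecule (ENSMUSG00000039542, chr9:49502136-49798925, minus strand), had the highest count of the 10 markers. It was read at 1806, 1810 and 876.1 CPM in T0, 2204, 2241, 1844 and 2763 CPM in T3, and 1652 and 1656 CPM in T5. T3 was above T0 in every replicate, but T0 replicate 3 was far below the other T0 replicates, and T5 lay within the T0 range. The rise in T3 did not pass the test (log2 0.60 ± 0.26, adjusted p = 0.0744). It passed without T0 replicate 1 (log2 0.75, adjusted p = 0.0344), with upper quartile scaling (log2 0.94, adjusted p = 0.00169) and after the counts of the antisense gene Gm11149, equal to 11% of the Ncam1 count, were taken out (log2 0.74, adjusted p = 0.0247). T5 against T0 gave log2 0.14 (95% interval -0.48 to 0.77, adjusted p = 0.727).

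Vcam1 encodes an immunoglobulin adhesion molecule that binds integrin alpha 4 beta 1 and is used to sort satellite cells (ENSMUSG00000027962, chr3:116109949-116129688, minus strand). Its level was 206.9, 180.7 and 126.6 CPM in T0, 223.5, 327.8, 257 and 228.7 CPM in T3, and 100.8 and 93.28 CPM in T5. The groups did not overlap, with T3 the highest and T5 the lowest. Vcam1 rose from T0 to T3 (log2 0.60 ± 0.22, adjusted p = 0.0358) and fell 2.67-fold from T3 to T5 (log2 -1.42 ± 0.26, adjusted p = 0.00327), to 56.6% of the T0 level (log2 -0.82 ± 0.27, adjusted p = 0.0188). The rise did not pass with DESeq2 size factors (adjusted p = 0.076), or without T0 replicate 2 (0.0787), T0 replicate 3 (0.0582), T3 replicate 2 (0.145) or T3 replicate 3 (0.0594). The fall from T3 did not pass without T5 replicate A (0.094) or B (0.155). The fall against T0 did not pass with upper quartile scaling (0.0516), or without T0 replicate 1 (0.0584), T0 replicate 2 (0.0558), T5 replicate A (0.129) or T5 replicate B (0.18). With the counts of the antisense gene Gm43109 taken out, equal to 14.4% of the Vcam1 count, the log2 fold changes were 0.58 for T3 against T0 and -1.41 for T5 against T3.

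Endothelial cells express Vcam1, Cxcr4 and Cd34 too. Over 8 endothelial markers, none at 0, the summed level lay between 96.6 and 172 CPM in T0, between 248 and 265 in T3 and between 122 and 131 in T5. Of the 8, 5 were higher in T3 than in T0 (all genes 15.0%) and 5 were lower in T5 than in T3 (all genes 0.888%). Between T5 and T0 edgeR called 0, and 2 were lower at an unadjusted p under 0.05. Among these markers, Pecam1 had 25.4 ± 7.68, 65.8 ± 3.13 and 33.8 ± 1.58 CPM, and Kdr had 14.9 ± 6.8, 18.8 ± 1.65 and 13 ± 0.172 CPM. Vcam1 and Cxcr4 had their highest mean in T3, as the endothelial sum did, and the part of endothelial cells in their values was not tested. Cd34 fell in both steps. In T0 replicate 3, where the sum was highest of T0, Vcam1, Cxcr4 and Cd34 were each lowest. That replicate was the lowest of T0 for 7 surface markers, Chodl among them, so low values there were not particular to Vcam1, Cxcr4 and Cd34.

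**Figure D3:**
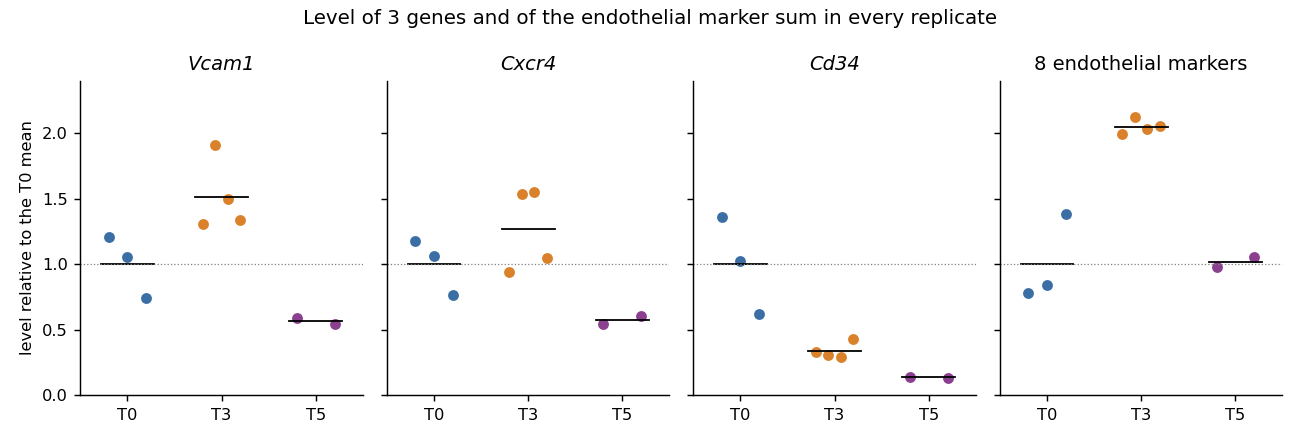
Level of Vcam1, Cxcr4, Cd34 and the sum of 8 endothelial markers in every replicate (points), relative to the mean of T0 (dotted line at 1), with group means as lines. Vcam1, Cxcr4 and the sum have their highest mean in T3, and Cd34 has its highest in T0.

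Icam1, a relative of Vcam1 that leukocytes bind, rose from 1.31 ± 0.703 CPM in T0 to 16 ± 4.06 in T3 (log2 3.58 ± 0.32, adjusted p = 8.41e-09) and stood at 24.9 ± 4.29 in T5 (log2 4.22 ± 0.34 against T0, adjusted p = 6.74e-09). Macrophages express Icam1 too, and 8 of their markers summed to between 22.2 and 45.7 CPM in T0, between 34.9 and 50.1 in T3 and between 36.3 and 44.1 in T5. Of those 8 markers 4 were higher in T3 than in T0 (all genes 15.0%), and their part in the Icam1 change was not tested.

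Cd34 encodes a sialomucin of stem and endothelial cells (ENSMUSG00000016494, chr1:194938819-194961279, plus strand). Its level was 166.9, 125.8 and 75.97 CPM in T0, 39.92, 37.6, 35.2 and 52.38 CPM in T3, and 17.12 and 15.88 CPM in T5. The 3 groups did not overlap, and each step was downwards. Cd34 fell 2.98-fold from T0 to T3 (log2 -1.57 ± 0.23, adjusted p = 8.36e-06) and a further 2.5-fold to T5 (log2 -1.32 ± 0.28, adjusted p = 0.0107), which left 13.4% of the T0 level (log2 -2.90 ± 0.32, adjusted p = 3.46e-07). The second step did not pass without T5 replicate A (0.159) or B (0.254). The counts do not separate strands, and those of the antisense gene Gm16897 equalled 59.9% of the Cd34 count. With them taken out, the log2 fold changes were -1.37, -1.71 and -3.08 for T3 against T0, T5 against T3 and T5 against T0, and all 3 passed (adjusted p = 6.06e-05, 0.0016 and 2.47e-07). Gm16897 itself gave -1.72, -1.07 and -2.79. It shares exons with Cd34 and reaches outside it, so taking out its whole count does not separate it from Cd34.

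Chodl encodes chondrolectin, a membrane protein with a C-type lectin domain (ENSMUSG00000022860, chr16:78930948-78951733, plus strand). It had 1067, 968.2 and 502.2 CPM in T0, 111.3, 119.8, 77.6 and 131.6 CPM in T3, and 64.51 and 56.59 CPM in T5. The groups did not overlap, and the lowest T0 replicate was far above the highest T3 replicate. Chodl fell 7.68-fold from T0 to T3 (log2 -2.94 ± 0.26, adjusted p = 7.84e-09) and 14-fold to T5 (log2 -3.80 ± 0.35, adjusted p = 4.55e-08), the widest change of the 10 markers in both comparisons. From T3 to T5 the log2 fold change was -0.86 (95% interval -1.47 to -0.25, adjusted p = 0.162), and 0.0234 was the adjusted p with the 4 T5 libraries as replicates. Of its relatives with a C-type lectin domain, Clec14a fell by 2.10 on the log2 scale in T3 (adjusted p = 4.13e-07), from 5.38 ± 1.67 to 1.25 ± 0.158 CPM.

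The syndecans are heparan sulfate proteoglycans that hold growth factors at the surface, and syndecan 3 and syndecan 4 mark satellite cells. Sdc4 (ENSMUSG00000017009, chr2:164424247-164443887, minus strand) had 179.8, 187.8 and 82.72 CPM in T0, 840.7, 1039, 767.4 and 1108 CPM in T3, and 703.5 and 790.7 CPM in T5. Every T3 and T5 replicate was above every T0 replicate. Sdc4 rose 6.25-fold from T0 to T3 (log2 2.64 ± 0.28, adjusted p = 9.42e-08) and was 4.98-fold higher in T5 than in T0 (log2 2.32 ± 0.30, adjusted p = 3.11e-06). T5 did not pass against T3 (log2 -0.33, 95% interval -0.94 to 0.28, adjusted p = 0.661).

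Sdc3 (ENSMUSG00000025743, chr4:130792537-130826319, plus strand), which also interacts with Notch in these cells, was read at a low level. Its CPM values were 23.98, 19.02 and 21.55 in T0, 12.48, 14.21, 17.93 and 11.14 in T3, and 18.25 and 16.97 in T5. T3 lay below T0 in every replicate and T5 overlapped T3, at values under those of T0. Sdc3 fell from T0 to T3 (log2 -0.63 ± 0.20, adjusted p = 0.0171), which did not pass with upper quartile scaling (log2 -0.34, adjusted p = 0.153), with the replicate block (log2 -0.52, adjusted p = 0.193), or without T3 replicate 1 (0.0552) or T3 replicate 4 (0.0779). Against T0, T5 gave log2 -0.29 (95% interval -0.80 to 0.22, adjusted p = 0.368). With the counts of its antisense genes taken out, equal to 18.5% of the Sdc3 count, the fall in T3 was -0.57 (adjusted p = 0.0315).

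The ratio of Sdc4 to Sdc3 was higher in every T3 and T5 replicate than in T0, given here with no test. The ratio in CPM was 7.5, 9.87 and 3.84 in T0, 67.4, 73.1, 42.8 and 99.4 in T3, and 38.6 and 46.6 in T5. Per kb of exon the ratio lay between 9.03 and 23.2 in T0 and between 101 and 234 in T3, and was 90.6 and 110 in T5. The other syndecans moved in both directions: Sdc1 rose from 5.67 ± 0.101 to 11.3 ± 1.9 CPM in T3 (log2 0.99 ± 0.21, adjusted p = 0.000421), and Sdc2 fell from 115 ± 22.6 to 61.2 ± 14 CPM (log2 -0.90 ± 0.22, adjusted p = 0.00157).

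Ranked by level per kb of exon, the order of the markers differed between groups. In T0 Ncam1 (173 ± 62.1 CPM per kb) and Chodl (154 ± 54.9) led. Calcr (102 ± 23.9), Megf10 (73.8 ± 15.4), Cdh15 (68.8 ± 14.5) and Sdc4 (58.9 ± 23.0) followed. Neighbours among these differed by less than their summed SDs, and Sdc4 stood apart from Cxcr4. Cxcr4, Vcam1 and Cd34 (23.9, 19.3 and 16.9) lay within each other's spread, and Sdc3 (3.59 ± 0.414) was lowest. In T3 Sdc4 (369 ± 63.2) and Ncam1 (261 ± 43.7) stood far above Megf10, Calcr, Cxcr4, Vcam1 and Chodl (33.4 to 20.0 CPM per kb). Neighbours from Megf10 to Chodl lay within their summed SDs. Cdh15 (11.8), Cd34 (5.66) and Sdc3 (2.33) followed, apart from Chodl and from each other. T5 kept Sdc4 (293 ± 24.2) and Ncam1 (191 ± 0.296) at the head and had Cd34 (2.26 ± 0.121) as the lowest.

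The order rests on the length used. Per kb of the whole gene, Chodl led T0 with 40.7 and Ncam1 had 5.05, while Sdc4 still led T3 and T5. Ncam1 has 8664 bases of exon in a gene of 296790 bases, and by whole gene its rank was 8 in T0, 4 in T3 and 3 in T5. Genes read at low levels could lie closer per kb of gene (Ncam2 0.0404 and Cd3e 0.0853 in T0) than per kb of exon (1.52 and 0.228). If reads in introns were counted, the order by exon overstates genes with long introns. The very small SDs of T5 come from 2 replicates that each sum 2 libraries. The 4 single T5 libraries ranged more widely, for example 72.17 to 137.3 CPM for Calcr and 643.5 to 911.3 CPM for Sdc4.

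**Figure D4:**
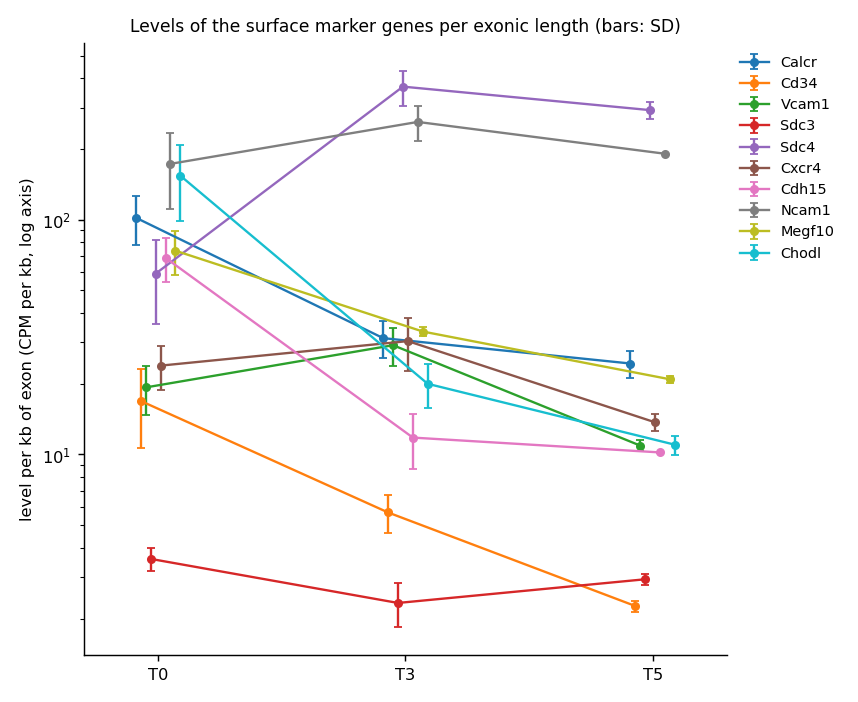
Mean level per kb of exon (vertical log axis, CPM per kb) of the 10 markers in T0, T3 and T5, with bars of 1 SD over 3, 4 and 2 replicates. Sdc4 passes from the sixth place in T0 to the first in T3 and T5, Chodl and Cdh15 drop from T0 to T3, and Cd34 drops at each step.

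The markers were set beside the identity of the cells. Pax7, Myf5, Itga7, Des, Sox8 and Fgfr4, 6 satellite cell genes, summed to 4210 to 6010 CPM in T0. The sum was 1090 to 1450 CPM in T3 and 930 to 957 in T5. In T3 against T0, 3 of the 6 were lower and 1 higher (all genes 22.9% and 15.0%). Des went from 209 ± 41.9 to 469 ± 48.9 CPM, and Itga7 did not pass (log2 0.21, adjusted p = 0.505). Pax7, the gene that defines satellite cells, fell from 3610 ± 719 CPM in T0 to 315 ± 64.7 in T3 (log2 -3.52 ± 0.24, adjusted p = 3.01e-10) and was 316 ± 13.1 in T5. Myod1, which marks activation, rose from 23.4 ± 6.25 to 272 ± 104 CPM in T3 (log2 3.54 ± 0.29, adjusted p = 3.95e-09). Myf5 had 110 ± 26, 100 ± 9.13 and 44.1 ± 1.64 CPM and fell from T3 to T5 (log2 -1.18 ± 0.24, adjusted p = 0.00736; 0.276 without T5 replicate A and 0.212 without B). Markers of other cells were all detected, among them those of fibro-adipogenic progenitors (summed 460 to 666 CPM in T0, 250 to 454 in T3, and in T5 224 to 231), pericytes (629 to 1040, 239 to 476, 197 to 206), myofibres (21.9 to 26.7, 51.7 to 84.3, 38.1 to 39.1), Schwann cells (43.2 to 48.4, 55.6 to 67.5, 53.1 to 56.2), lymphocytes (4.02 to 8.16, 4.03 to 5.54, 5.28 to 6.05) and erythroid cells (33.7 to 35.3, 9.49 to 26.1, 23.5 to 35.8). Notch3 was the largest term of the pericyte sum (mean 738 CPM in T0, 214 in T3 and 93.1 in T5) and is also counted among the other surface proteins below. In T3 against T0, 3 of the 7 pericyte genes were lower (Notch3, Kcnj8 and Acta2) and 1 higher (Rgs5, log2 1.79), with Pdgfrb at 0.50 and Myh11 at 0.40 not passing. Over all genes 22.9% were lower and 15.0% higher in that comparison. The fibro-adipogenic sum was mostly Gsn (mean 414, 220 and 134 CPM) and Dpt (127, 76.4 and 36.3). In T3 against T0 these 2 of the 8 genes were lower, Col1a1 was higher (log2 1.20), and the list's median was 0.37. Alas2 (mean 24.9, 8.35 and 9.9 CPM) made most of the erythroid sum in T0, though its exons overlap those of Apex2. The globin gene Hbb-bs had 6.46, 5.58 and 14.2 CPM, and 1 of the 5 erythroid genes was lower in T3 than in T0. T0 replicate 3 was the lowest T0 replicate for 7 of the 10 markers.

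Within the 9 replicates, log2 CPM of Calcr, Cd34, Cdh15, Megf10 and Chodl ran together, with pairwise Pearson's r from 0.86 (Cd34 and Cdh15) to 0.99, which is a description over points that share their groups. Sdc3 had r of 0.39 (Cd34) to 0.77 (Cdh15) with these 5. Pearson's r was 0.99 for Cd34 and Megf10, 0.98 for Calcr and Cdh15, 0.98 for Megf10 and Chodl, and 0.94 for Vcam1 and Cxcr4. Sdc4 and Cdh15 had r of -0.94. The most similar of 7104 other genes were Pax7 (0.995), Hs6st2 and Mill2 (both 0.994) for Cdh15, Ccdc136 (0.993), Kank2 and Emx2os for Calcr, and Nrbp2 (0.999), Dnajc10 and Trappc9 for Cd34. Clstn1 (0.998), Cmtr1 and Acsl5 ran most like Megf10, Casd1 (0.998), Zc3h12b and Ocrl like Chodl, and Tmem11 (0.999), Zbtb11 and Ddx21 like Sdc4. For the others the highest r were lower, with Cct4 (0.987), Scaf8 and Braf for Ncam1, Pkm (0.972), Fasn and Nde1 for Cxcr4, Ccdc12 (0.964), Trim25 and Prkar2a for Vcam1, and Dll1 (0.963), Arhgef10l and Rassf3 for Sdc3.

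Of 20 other surface proteins of satellite cells, 8 were higher and 6 lower in T3 than in T0 (all genes 15.0% and 22.9%). Their median log2 fold change was 0.34, and the shares of all genes in T5 against T0 were 13.2% and 22.5%. Osmr, the oncostatin M receptor, rose from 20.3 ± 1.4 to 250 ± 48.7 CPM (log2 3.62 ± 0.24, adjusted p = 1.77e-10), Cd9, a tetraspanin, from 57.2 ± 6.98 to 315 ± 57.4 CPM (log2 2.46 ± 0.23), and Met, the receptor of hepatocyte growth factor, from 104 ± 18.6 to 333 ± 41.9 CPM (log2 1.68 ± 0.22). The FGF receptors parted: Fgfr1 rose from 781 ± 295 to 3920 ± 385 CPM (log2 2.33 ± 0.27, adjusted p = 3.62e-07), and Fgfr4 fell from 649 ± 219 to 124 ± 24.7 CPM (log2 -2.39 ± 0.24, adjusted p = 4.29e-08). Dag1 (dystroglycan, log2 -1.63), Notch3 (-1.79, with the antisense gene Gm17276), Lifr (-1.12), Notch2 (-1.01) and Igf1r (-0.59, adjusted p = 0.0326) also fell. Igf1r did not pass with DESeq2 size factors (0.0869), upper quartile scaling (0.109), no filter (0.0524), only the 2 groups (0.0766) or the replicate block (0.0533), nor without T0 replicate 1 (0.122) or 2 or T3 replicate 1, 2 or 3. From T3 to T5, 2 of the 20 were lower (all genes 0.888%). Fgfr1 fell to 1620 ± 46.9 CPM (log2 -1.27 ± 0.30, adjusted p = 0.0247) and Notch3 gave log2 -1.20 ± 0.31 (adjusted p = 0.0383). Neither passed with DESeq2 size factors, or without T3 replicate 1 or 4 or T5 replicate A or B, and Notch3 did not pass without T3 replicate 3 or with upper quartile scaling (0.0869). Against T0, 9 were higher and 5 lower in T5, with 5 higher with DESeq2 size factors or without T5 replicate A and 4 without B.

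Of 27 relatives of the markers, 5 were higher and 5 lower in T3 than in T0 (median 0.15). The shares of all genes were 15.0% higher and 22.9% lower, and 13.2% and 22.5% in T5 against T0. The count of higher relatives was 13 without T0 replicate 3. Besides those named above, Cxcr6 (log2 -2.32, within Fyco1 on the other strand) and Podxl2, a relative of Cd34 (log2 -1.59, overlapped by Gm15612), fell. From T3 to T5, 1 was higher (Calcrl) and 1 lower (Ackr3), with 1.28% and 0.888% over all genes. T5 against T0 gave 8 higher and 4 lower, with 3 higher without T5 replicate A, and 13 higher and 7 lower without T0 replicate 3. Cdh4, a cadherin, was among the lower ones (log2 -1.12 ± 0.37, adjusted p = 0.021; 0.108 without T0 replicate 2, 0.0699 without T5 replicate A, 0.126 without B, 0.118 with upper quartile scaling and 0.0934 with only the 2 groups).

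Of 16 ligands and counter-receptors of the markers, 5 were higher in T3 than in T0 (median 0.08). Over all genes 15.0% were higher and 22.9% lower, and 13.2% and 22.5% in T5 against T0. The count of lower ones was 0 in edgeR, at an unadjusted p under 0.05 and in DESeq2, and 1 without T0 replicate 3. Hbegf, a growth factor that binds heparan sulfate, rose from 1.36 ± 0.194 to 30.2 ± 7.04 CPM (log2 4.48 ± 0.26, adjusted p = 3.41e-11). Vegfa rose from 34.5 ± 15.3 to 137 ± 28.8 CPM (log2 1.99 ± 0.28), Tnc, the matrix protein tenascin C, by 3.54 ± 0.39 (overlapping 8030451A03Rik), and Selp, P-selectin, by 1.96 ± 0.33. In T5 against T3 edgeR called 0, with 2 higher and 2 lower at an unadjusted p under 0.05 and 1 lower in DESeq2. Against T0, 4 were higher in T5 and 1 lower. The counts were 7 and 3 without T0 replicate 3, and 7 were higher with upper quartile scaling or the 4 T5 libraries as replicates. The lower count was 0 without T5 replicate A or B, with upper quartile scaling, with no filter and with only the 2 groups compared.

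Of 19 cytoplasmic partners, 9 were higher and 3 lower in T3 than in T0 (median 0.37, all genes 15.0% and 22.9%). Msn, moesin, which tethers VCAM1 to actin, rose from 153 ± 14.6 to 597 ± 61.7 CPM (log2 1.97 ± 0.21, adjusted p = 1.35e-07). Fyn, a kinase bound by NCAM, rose from 161 ± 30.7 to 515 ± 64.4 CPM (log2 1.67 ± 0.22), and Sdcbp, syntenin, which binds the tails of syndecans, by 1.11 ± 0.22 (overlapping Nsmaf). Gnas, the Gs alpha gene, fell by 0.71 on the log2 scale in T3 (adjusted p = 0.011; 0.065 without T0 replicate 1 and 0.0511 without T3 replicate 1) and by 1.43 in T5 against T0, though Gm20721 overlaps it. Jup, plakoglobin, fell by 1.10 in T5 against T0 (adjusted p = 0.00191; 0.0592 without T5 replicate A). The lower members numbered 7 of 19 in T3 without T0 replicate 3.

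Of 17 enzymes that build the glycans of these proteins, 4 were higher and 3 lower in T3 than in T0 (median 0.19). The shares over all genes were 15.0% and 22.9%, and 13.2% and 22.5% in T5 against T0. In T3, 7 enzymes were higher under upper quartile scaling and 2 without T0 replicate 2, without T3 replicate 4 or with the replicate block. The xylosyltransferases that start heparan sulfate chains parted: Xylt1 rose from 25.2 ± 4.09 to 69.4 ± 5.72 CPM (log2 1.46 ± 0.20, adjusted p = 3.06e-06) and Xylt2 fell from 19.1 ± 5.08 to 7.55 ± 0.865 CPM (log2 -1.34 ± 0.21, adjusted p = 2.17e-05). Hs6st2, which adds sulfate at the sixth carbon, fell from 537 ± 95.5 to 162 ± 21.7 CPM (log2 -1.73 ± 0.21, adjusted p = 5.02e-07). Ext2, of the polymerase, fell by 1.09 (adjusted p = 8.31e-05), and Ndst1 rose by 1.22 ± 0.22, overlapping Rps14. T5 against T0 gave 3 higher and 3 lower, with 5 higher under upper quartile scaling and 5 lower without T0 replicate 3.

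Of 14 proteases that shed such proteins and their inhibitors, 5 were higher and 4 lower in T3 than in T0 (median 0.18). All genes gave 15.0% higher and 22.9% lower, and 13.2% and 22.5% in T5 against T0. There were 3 higher without T3 replicate 2, and 2 lower without T0 replicate 1 or 2, without T3 replicate 1 or 3 or with upper quartile scaling. The inhibitors parted: Timp3 rose from 27.9 ± 3.71 to 82 ± 12 CPM (log2 1.56 ± 0.21, adjusted p = 2.14e-06, within Syn3) and Timp1 by 2.89 ± 0.36 (within Syn1), while Timp2 fell by 1.00 ± 0.20. Ncstn, which overlaps Copa, fell by 0.81 ± 0.20. Adam10 (log2 -0.56, adjusted p = 0.0227) and Mmp2 (log2 -0.93, adjusted p = 0.0256) were lower too. Without T0 replicate 1 their adjusted p were 0.0866 and 0.0994, and neither passed without T0 replicate 2 or T3 replicate 1 or 3 either; Adam10 did not pass without T3 replicate 2. Adam10 also did not pass with DESeq2 size factors (0.0652), upper quartile scaling (0.0785), only the 2 groups (0.0588) or the replicate block (0.0963), and Mmp2 did not in DESeq2 (0.143) or with upper quartile scaling (0.191). Adam12 went from 26.2 ± 5.65 CPM in T0 to 45.4 ± 15.5 in T3 and 82 ± 5.97 in T5 (log2 1.64 ± 0.28 for T5 against T0, adjusted p = 5.85e-05). Against T0, 4 were higher and 5 lower in T5, the latter falling to 1 without T5 replicate B and 2 without A.

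From T3 to T5 edgeR called 0 of the cytoplasmic partners, 0 of the glycan enzymes and 0 of the proteases and inhibitors. Over all genes it called 1.28% higher and 0.888% lower. At an unadjusted p under 0.05, 3 partners and 2 glycan enzymes were lower, and 2 proteases or inhibitors were lower and 1 higher. DESeq2 called 1 lower in each list. The medians of the 3 lists were -0.15, -0.12 and -0.01.

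**Figure D5:**
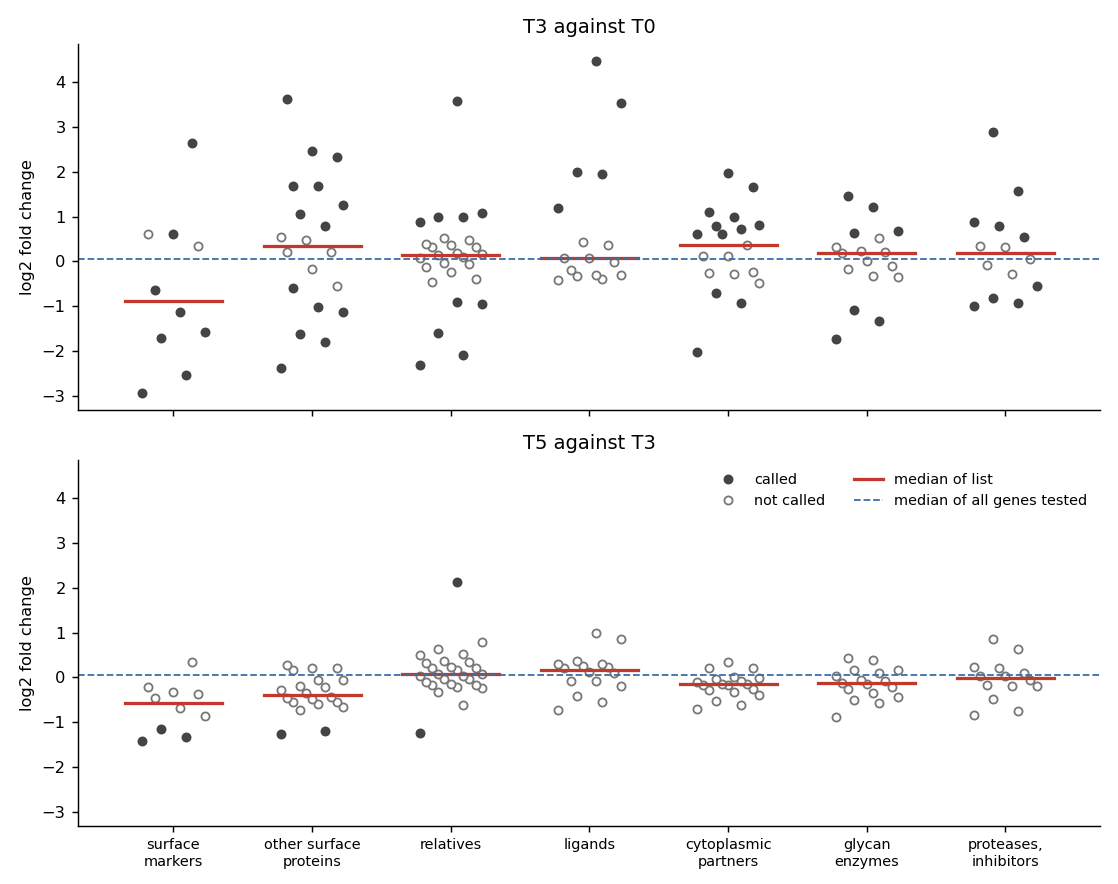
Log2 fold change of each gene (points, filled where called) of the 10 surface markers and the 6 related lists in T3 against T0 (upper panel) and T5 against T3 (lower panel), with each list's median (red line) and the median of all genes tested (dashed line, 0.05 in both). The surface markers have the lowest median in both panels, -0.88 and -0.57.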

How the data were processed

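The authors deposited raw counts of reads per gene for 11 libraries. Tools listed in the submitters' processing notes, for build GRCm38, are featureCounts 1.4.6-p3, STAR 2.5.0a, DESeq2 1.12.3 and R 3.3.1; the annotation release and strand setting are not given in the sources used here. Tsix had 1.004 to 1.014 times the count of Xist, which it covers on the other strand, in each library, so strands were not separated and antisense or overlapping genes are uncertain. Of 48709 identifiers, 48349 matched GENCODE vM21 and 360 did not. Columns were assigned to groups by name; T0 and T3 replicates carry their column's number, which could not be tied to the letters of the sample titles.

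Counts were tested with edgeR 4.0.16 (R 4.3.3): filterByExpr, TMM, 1 quasi-likelihood fit of all 3 groups, two-sided, adjusted over 31999 genes, threshold 0.05. Standard errors were taken as log2 fold change over the root of F. The script was tested on simulated data. Alternatives were other scalings, no filter, DESeq2 1.42.0, only the groups compared, 4 T5 libraries, a replicate block, each replicate left out, and overlapping antisense counts taken out (chosen after seeing the data). With strands not separated, taking out antisense counts can also remove reads of the marker itself. Besides the 10 members, Pax7, Myf5, Myod1 and called relatives, each list's 4 smallest p per comparison and called genes against its majority were named. Likeness used log2(CPM + 0.5) over genes with a mean of at least 4. The members and lists were chosen with earlier results of these data known. 1 gene that the naming rule takes is not reported here.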

Additional observations from a re-analysis of the deposited data

How the results depend on the processing

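For Calcr, Cd34, Cdh15, Megf10, Chodl and Sdc4, T3 and T5 against T0 kept direction and passed under every alternative run (for example Chodl -3.21 to -2.59 and -4.07 to -3.41, Sdc4 2.35 to 3.00 and 2.03 to 2.72). Changes of the other markers that did not are given in the report. Sdc3 in T5 against T0 turned to 0.05 with upper quartile scaling (adjusted p = 0.856) and Ncam1 to -0.13 without T0 replicate 3 (adjusted p = 0.628; -0.13 to 0.30 with any one replicate left out), neither called; the cause was not tested. Upper quartile scaling moved the median of all genes in T3 against T0 from 0.05 to 0.32 and the share of calls that were lower from 60.4% to 44.7%, and in T5 against T0 from 0.18 to 0.51 and from 62.9% to 44.1%.

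Of the markers, 2 were higher in T3 than in T0, but 1 with DESeq2 size factors, 4 with upper quartile scaling, and 1 to 3 with single replicates left out. In T5 against T3, 3 were lower, but 5 with only the 2 groups compared or the 4 T5 libraries as replicates, and 0 to 3 with single replicates left out. With 1 T5 replicate left, that sample is assumed to vary like the others. Over all genes, T5 against T3 gave 411 higher and 284 lower. With DESeq2 size factors 268 were higher, with no filter 695 and 518 (higher and lower), with only the 2 groups 1348 and 1645, with 4 T5 libraries 923 and 1199, with upper quartile scaling 456 lower, with DESeq2 659 lower, and with single replicates left out 143 to 346 and 41 to 246. T5 against T0 gave 4229 higher, 7144 with upper quartile scaling and 2531 to 8280 with single replicates left out.

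The replicate block by column number could be run for T0 and T3 alone and gave 4170 genes higher and 6053 lower, with the calls of Sdc3, Adam10 (log2 -0.58, adjusted p = 0.0963) and Igf1r (-0.62, 0.0533) lost. Same-numbered deviations correlated at -0.226, 0.374 and 0.307. T0 replicate 1 was closest to T3 replicate 4 (0.47), T0 replicate 2 to T3 replicate 2 (0.374) and T0 replicate 3 to T3 replicate 1 (0.329). With so few samples, these values do not settle whether the numbers pair them. The lowest count of a marker in a library was 572 (Sdc3), and the precision of T5 against T3 rests on 2 T5 replicates.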
